A study of Saccharomyces cerevisiae with 8 samples.

Results

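The genes of the small (40S) ribosomal subunit proteins of *Saccharomyces cerevisiae*, *RPS0A* to *RPS31*, were taken by gene name from a table of RPKM values. RPKM are read counts scaled to gene length and to the mapped reads of the library. By the name of the table, its values were also TMM-normalized between libraries. All 56 *RPS* genes were present among the 6103 genes of the table. They encode 32 proteins, of which 24 are made from a pair of gene copies named A and B and 8 from a single gene. The values come from 4 strains with 2 RNA-seq libraries each. The wild type strain was ScY01a, a *MATa* haploid derived from the industrial, thermotolerant strain ScY01, and the deletion strains *sin3∆*, *srb2∆* and *mig1∆* carry KanMX in place of the complete open reading frame. How many clones stand behind a strain is not given in the sources used here. Every strain was cultured at 30°C for 10 h in YP medium with 200 g/L glucose to early-log phase, and the comparisons ask which genes change when the factor is lost. Sin3p holds Rpd3 histone deacetylase complexes together, Srb2p belongs to the head module of Mediator, and Mig1p represses genes that glucose turns off.

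The 40S subunit reads the mRNA: its proteins coat the 18S rRNA, line the path of the mRNA and shape the site where codons are matched with tRNAs. Most of these proteins in yeast have a pair of near-identical genes that remain from an ancient duplication of the genome, and the promoters of the ribosomal protein genes are largely bound by Rap1p with Fhl1p and its coactivator Ifh1p. The copies of a pair often differ in level, in introns and in regulation. The protein Rps14 is known to bind the pre-mRNA of *RPS14B* and lower its splicing, and the protein Rps28 is known to promote decay of the *RPS28B* mRNA.

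*SIN3*, *SRB2* and *MIG1* were each at 0 in the strain that lacks them. The a-cell gene *STE2*, the receptor for alpha-factor, lay between 463 and 477 RPKM in the wild type, and the alpha-cell gene *STE3* at 0.352 RPKM or less in every library. Other alpha-cell genes listed were not all near 0. In the wild type *MFALPHA1* was 2.55 and 3.57 RPKM, *MFALPHA2* 21.8 and 17.3, and *SAG1* 16.9 and 17.8. The a-cell genes *MFA1* and *MFA2* were listed at 0 in every library and were not tested. Of the 5 a-cell genes tested, 5 were called lower in *sin3∆* (12.2% of all genes tested) and 1 in *srb2∆* (14.9%). In *srb2∆*, 4 of the 5 had both libraries below both of the wild type, as did 42.6% of all genes tested. The part of this change of a-cell genes in the results on *RPS* genes was not tested. The labels do not say that the 2 libraries of a strain came from separate cultures, so that p-values measure only the spread between these libraries. The table holds no read counts, so no counting error is given for its values. The summed RPKM of a library ranged from 862336 in wild type replicate 2 to 1150769 in *sin3∆* replicate 2.

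Copies of a pair share most of their coding sequence, and how well reads can be told apart depends on where they differ. In the spliced coding sequences of the R64 reference (RefSeq annotation), identity between A and B ranged from 84.3% in *RPS27* to 99.2% in *RPS6*, with a median of 92.7%. The encoded proteins were identical in 9 pairs, and the lowest protein identity was 87.9%, in *RPS7*. A window of 150 bases, the length of 1 read, was identical in both copies at 40.04% of positions in *RPS6*, 1.41% in *RPS4* and 1.16% in *RPS24*. The values of these pairs are therefore the least certain for each copy, while 20 of the 24 pairs held no such window.

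The pairs on which the results turn are shown as the first 180 coding bases, 5′ to 3′ and without introns, with capitals at positions that differ from the other copy. *RPS28* and *RPS29* are short and are shown whole. *RPS29* is shown because both of its copies were listed at 0. *RPS9A* lies on chromosome XVI from 404950 to 406044 and *RPS9B* on chromosome II from 604508 to 605508, and the positions of the others are given where they are described. *RPS14A*, *RPS22A*, *RPS28A* and *RPS29B* are on the minus strand and the rest on the plus strand.
RPS14A: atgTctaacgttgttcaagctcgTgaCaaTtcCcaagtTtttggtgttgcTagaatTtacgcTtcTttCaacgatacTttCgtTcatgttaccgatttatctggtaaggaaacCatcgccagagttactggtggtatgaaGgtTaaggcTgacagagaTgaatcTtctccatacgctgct
RPS14B: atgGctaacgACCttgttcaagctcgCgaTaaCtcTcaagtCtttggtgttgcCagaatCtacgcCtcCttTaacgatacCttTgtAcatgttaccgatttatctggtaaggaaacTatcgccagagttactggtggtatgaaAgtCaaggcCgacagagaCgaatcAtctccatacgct
RPS22A: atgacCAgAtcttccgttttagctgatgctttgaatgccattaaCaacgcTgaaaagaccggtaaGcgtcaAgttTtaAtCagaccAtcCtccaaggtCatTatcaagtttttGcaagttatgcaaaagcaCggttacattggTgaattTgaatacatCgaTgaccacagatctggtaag
RPS22B: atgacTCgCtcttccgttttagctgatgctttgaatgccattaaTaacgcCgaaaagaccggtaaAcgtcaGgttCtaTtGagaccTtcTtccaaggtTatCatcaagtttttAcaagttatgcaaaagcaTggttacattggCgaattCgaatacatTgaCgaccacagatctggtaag
RPS28A: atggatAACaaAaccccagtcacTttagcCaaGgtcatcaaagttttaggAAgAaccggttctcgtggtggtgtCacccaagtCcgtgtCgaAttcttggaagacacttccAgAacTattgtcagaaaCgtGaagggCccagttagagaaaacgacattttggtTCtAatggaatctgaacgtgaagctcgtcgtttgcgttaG
RPS28B: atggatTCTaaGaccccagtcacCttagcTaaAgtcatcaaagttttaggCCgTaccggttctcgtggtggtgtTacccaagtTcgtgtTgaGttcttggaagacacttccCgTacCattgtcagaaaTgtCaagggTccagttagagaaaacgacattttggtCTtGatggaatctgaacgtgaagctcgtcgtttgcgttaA
RPS9A: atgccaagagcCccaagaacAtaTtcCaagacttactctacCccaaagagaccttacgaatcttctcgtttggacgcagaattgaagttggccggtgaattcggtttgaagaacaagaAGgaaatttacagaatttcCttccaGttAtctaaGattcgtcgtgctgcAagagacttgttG
RPS9B: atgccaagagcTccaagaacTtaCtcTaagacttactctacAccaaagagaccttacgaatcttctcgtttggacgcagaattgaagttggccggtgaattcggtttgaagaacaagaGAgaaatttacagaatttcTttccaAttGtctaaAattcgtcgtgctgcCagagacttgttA
RPS29A: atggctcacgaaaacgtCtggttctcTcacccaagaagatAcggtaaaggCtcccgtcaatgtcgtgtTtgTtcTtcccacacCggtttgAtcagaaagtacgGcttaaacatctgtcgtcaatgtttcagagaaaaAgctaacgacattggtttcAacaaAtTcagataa
RPS29B: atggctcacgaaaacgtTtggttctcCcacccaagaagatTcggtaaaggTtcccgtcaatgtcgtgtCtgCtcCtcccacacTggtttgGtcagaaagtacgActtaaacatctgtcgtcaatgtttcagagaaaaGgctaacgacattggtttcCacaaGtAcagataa

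The coding sequences of *RPS14A* and *RPS14B* differed at 33 aligned positions, those of *RPS22* at 41, *RPS28* at 24, *RPS9* at 54 and *RPS29* at 14. In the first 180 bases the capitals of *RPS14*, *RPS22* and *RPS9* are spread along the sequence, and the longest run without one over the whole coding sequence was 92 bases in *RPS14*, 35 in *RPS22*, 35 in *RPS28* and 76 in *RPS9*, against 311 bases in *RPS6*.

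Levels differed between proteins in the wild type. Of all RPKM in a wild type library, 8.92% and 11.04% belonged to *RPS* genes. The figure was 11.3% and 12.2% in *mig1∆*, and it reached 19.0% and 19.2% in *sin3∆* and 19.7% and 19.4% in *srb2∆*. When the RPKM of the copies was added up per protein, the level in the wild type ranged from 962 RPKM for *RPS3*, which encodes a protein at the entry of the mRNA path, to 12986 RPKM for *RPS30*, with a median of 1959 RPKM over 31 proteins. The order was not independent of length. Coding length and mean wild type RPKM had a Spearman's rho of -0.52 across the 54 genes, which share libraries and are not independent replicates. The median was 3025 RPKM over the 8 genes with a value that are under 300 coding bases and 1174 RPKM over the 46 longer ones.

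**Figure D1:**
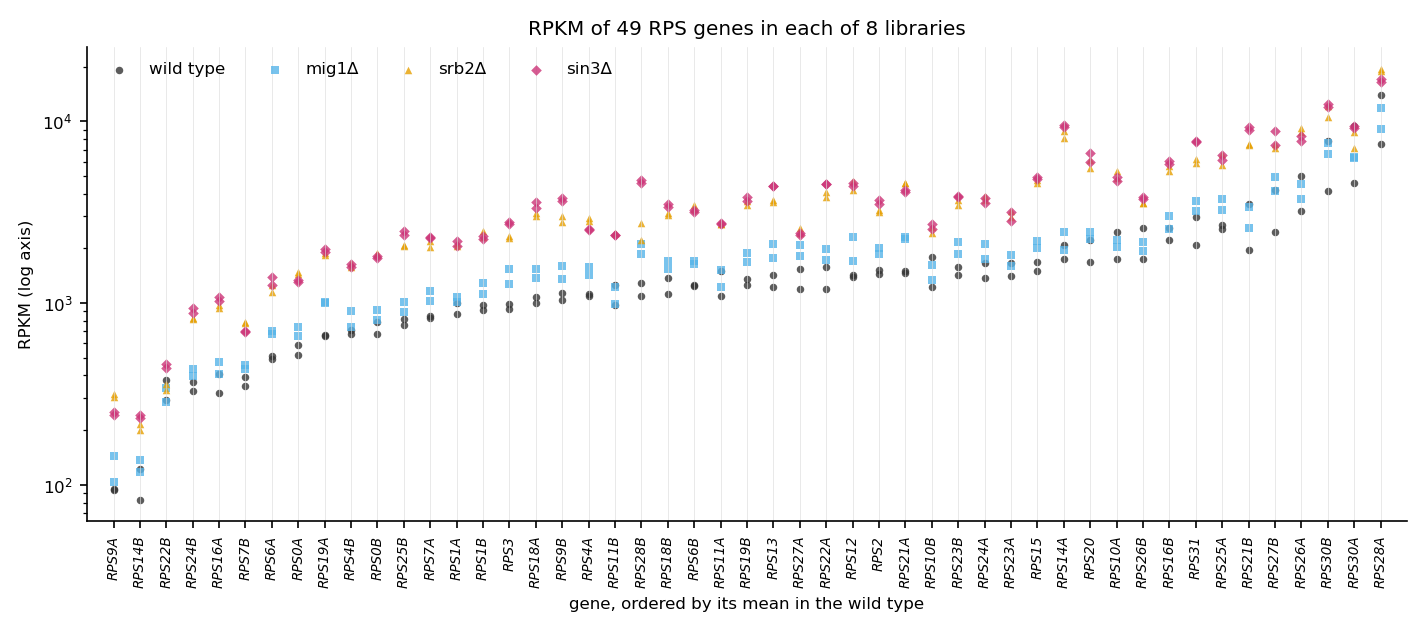
RPKM on a log axis of 49 *RPS* genes with a value, in order of their wild type mean. Each point is 1 library, with 2 per strain, and for most genes the *sin3∆* and *srb2∆* points lie together above those of the wild type and *mig1∆*, with *RPS22B* and *RPS30A* as genes whose points mix.

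*RPS29A* (YLR388W, chromosome XII from 898651 to 898821) and *RPS29B* (YDL061C, chromosome IV from 340628 to 340798) encode a zinc-binding protein of the subunit's head and were listed at 0 in all 8 libraries. Both have 171 coding bases. All 102 genes of the table with fewer than 180 coding bases were listed at 0 in every library. The next length class, from 180 bases to under 210, had 31.5% of its genes at 0 throughout. From 210 to under 300 bases the percentage was 12.6%, and from 300 to under 600 bases it was 3.63%. A value of 0 for *RPS29* is therefore shared with every gene of its length, and no fold change is given for this pair.

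Short *RPS* genes also differed more between the wild type libraries. The RPKM in replicate 3 divided by that in replicate 2 ranged from 0.847 to 2.07 over the 8 genes under 300 coding bases, with a median of 1.74. Over the 46 longer genes it ranged from 0.863 to 1.57, with a median of 1.14. The same ratio between the *sin3∆* libraries (replicate 2 over 1) stayed between 0.943 and 1.19 over all 54 genes. *RPS30A*, *RPS30B*, *RPS28A*, *RPS21B* and *RPS27B* were the genes above the longer ones, with *RPS28B* and *RPS21A* below 1.

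**Figure D2:**
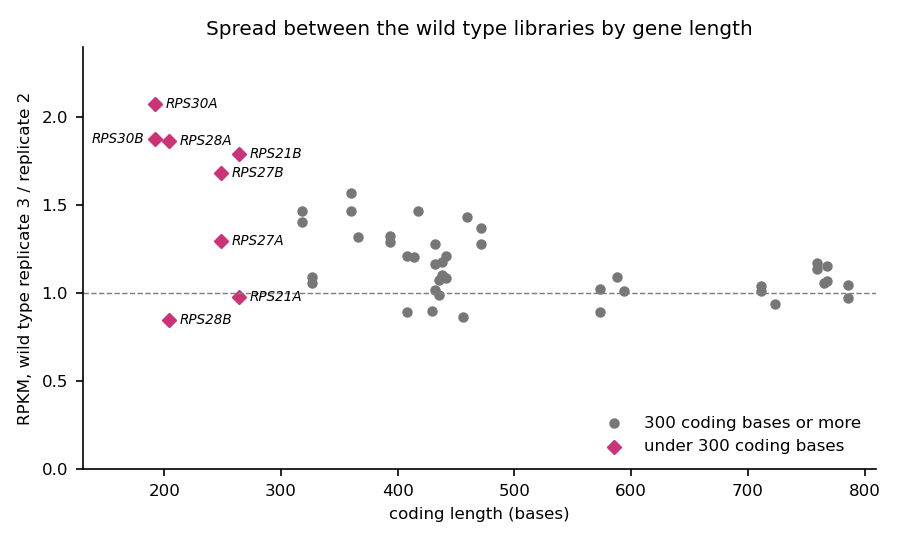
Ratio of the RPKM in wild type replicate 3 to that in replicate 2, against the coding length in bases, for 49 *RPS* genes with a value. Genes under 300 coding bases, drawn as diamonds, reach a ratio of 2.07, while the longer genes stay at 1.57 or below.

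The share of each copy in the RPKM of its pair varied widely. The A copy was the higher of the pair in the wild type for 14 of 23 pairs and the B copy for 9. The higher copy exceeded the lower at least 2-fold in 10 pairs and at least 5-fold in 4, and in 7 pairs the A copy held between 40% and 60%. The same copy was the higher in all 8 libraries for 19 pairs. The other 4 were *RPS1*, *RPS18*, *RPS23* and *RPS30*.

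The most uneven pair was *RPS14*, which encodes a protein of the platform near the exit of the mRNA path. *RPS14A* made up 95.4% and 94.5% of the pair in the wild type, 18.7-fold the mean of *RPS14B*. *RPS9B* was 11.6-fold *RPS9A*, whose share was 8.2% and 7.7% of the pair. Rps9 binds the 18S rRNA early in assembly and bears on the accuracy of decoding. *RPS28A* held 85.2% and 92.7% of its pair, 8.93-fold *RPS28B*. *RPS28* encodes a small protein beside the exit of the mRNA path.

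At the even end, *RPS1A* was 871 and 1004 RPKM in the ScY01a libraries, 2060 and 2204 in those of *sin3∆*, 2146 and 2050 in those of *srb2∆*, and 1013 and 1080 in those of *mig1∆*. *RPS1B* was 917 and 982 RPKM in the ScY01a libraries, 2247 and 2327 in those of *sin3∆*, 2481 and 2314 in those of *srb2∆*, and 1122 and 1287 in those of *mig1∆*. The copies of this pair lay close together in every strain, with a wild type share for A of 49.6% ± 1.3 (SD, n = 2). *RPS23A* was 1406 and 1656 RPKM in the wild type and *RPS23B* 1431 and 1582, a share for A of 50.4% ± 1.1, which was 43.8% in *sin3∆*, 46.3% in *srb2∆* and 46.2% in *mig1∆*. Rps23 reaches into the decoding centre. *RPS30A* was 4564 and 9464 RPKM and *RPS30B* 4154 and 7791, a share of 53.6% ± 1.8. Both *RPS30* copies were about as high as each other within a library and much higher in replicate 3 than in replicate 2.

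**Figure D3:**
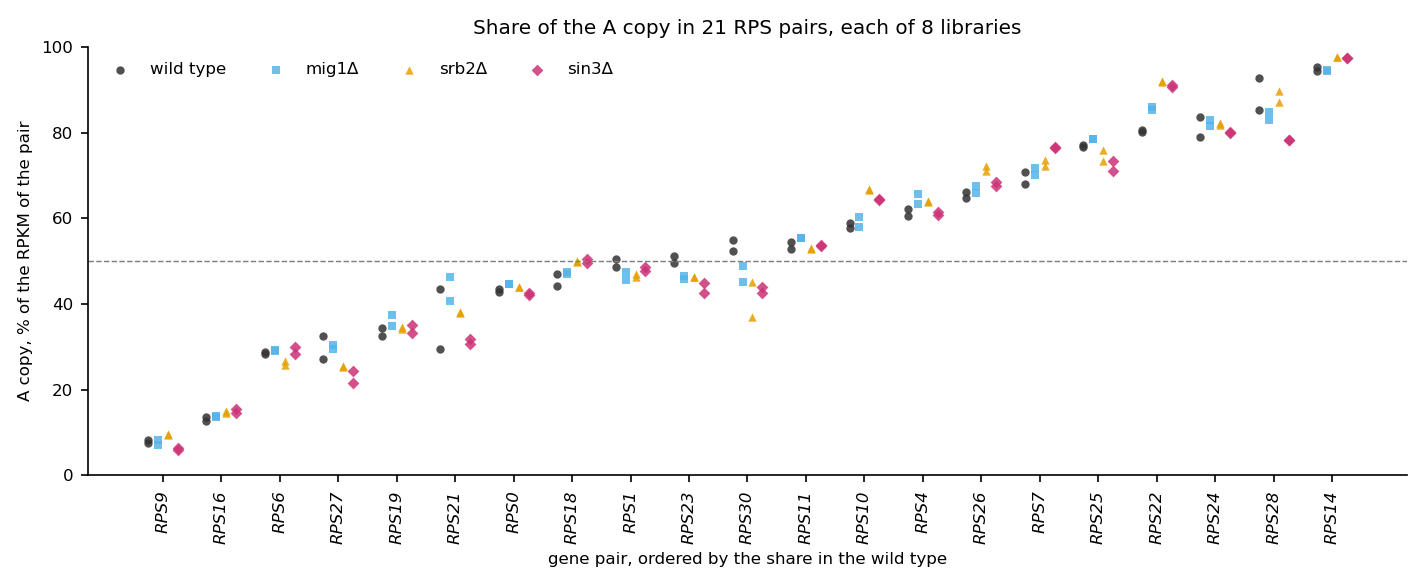
Share of the A copy, in % of the summed RPKM of its pair, for 21 *RPS* pairs in order of the wild type share. Each point is 1 library and the dashed line marks 50%. The *sin3∆* and *srb2∆* points of *RPS22* lie above 90% against 80.2% and 80.7% in the wild type, and those of *sin3∆* for *RPS28* lie at 78.2% against 85.2% and 92.7%.

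Most *RPS* genes increased in *sin3∆* and in *srb2∆*. Calls required a 2-fold difference with an adjusted p no higher than 0.05 (limma on log2(RPKM + 1), Benjamini-Hochberg over 5628 genes). In *sin3∆*, 46 of the 54 genes tested were higher than in the wild type, where 17.7% of all genes tested were called higher, and 0 were lower, where 12.2% of all genes were. In *srb2∆*, 48 were higher (15.0% of all genes) and 0 were lower (14.9%). The median log2 fold change of the members was 1.36 in *sin3∆* and 1.32 in *srb2∆*, against 0.01 and -0.01 for all genes. Both *sin3∆* libraries exceeded both wild type libraries for 53 members (44.0% of all genes), and both *srb2∆* libraries for 52 (42.1%). *RPS29A* and *RPS29B* did not pass the filter on low values. Both comparisons share the wild type libraries.

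The count depended on how the libraries were scaled and on the wild type. With each library scaled to the same sum, 28 *RPS* genes were called higher in *sin3∆* and 36 in *srb2∆*. Over all genes, 649 and 588 were called higher there, against 995 and 844 in the values reported. With quantile normalization 14 and 13 *RPS* genes were called higher, while the counts over all genes were 844 and 812. The *RPS* counts thus fell far more with quantile normalization than those of all genes. No *RPS* gene was called lower in any of these. The median log2 fold change of the members was 0.71 in *sin3∆* and 0.79 in *srb2∆* with quantile normalization. Without wild type replicate 2 the counts were 40 and 41, and without wild type replicate 3 they were 52 and 51. The genes of the large subunit, measured in the same libraries, had 64 of 78 called higher in *sin3∆* and 66 in *srb2∆*, with medians of 1.35 and 1.31 on the log2 scale.

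All 8 single-copy genes were called higher in both deletions. *RPS13*, whose protein is needed for the joining of the subunits, was 1422 and 1227 RPKM in the ScY01a libraries, 4413 and 4423 in those of *sin3∆*, 3694 and 3617 in those of *srb2∆*, and 1776 and 2124 in those of *mig1∆*. *RPS20*, which encodes a protein of the head, was 1687 and 2230 RPKM in the ScY01a libraries, 5975 and 6726 in those of *sin3∆*, 6093 and 5523 in those of *srb2∆*, and 2262 and 2469 in those of *mig1∆*. In both genes the *sin3∆* and *srb2∆* libraries lay more than 2-fold above every wild type library, and those of *mig1∆* lay above the wild type by less.

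*RPS12*, whose protein sits in the beak of the head, was 1393 and 1423 RPKM in the ScY01a libraries, 4423 and 4577 in those of *sin3∆*, 4725 and 4209 in those of *srb2∆*, and 1701 and 2313 in those of *mig1∆*. It had the third largest log2 fold change of the family in *srb2∆*, 1.66 (SE 0.15, adjusted p = 3.53e-05), and the largest of a single-copy gene there. *RPS15*, whose protein is needed for export of the subunit from the nucleus, was 1675 and 1508 RPKM in the ScY01a libraries, 4930 and 4833 in those of *sin3∆*, 4731 and 4564 in those of *srb2∆*, and 1998 and 2209 in those of *mig1∆*. *RPS31*, which is made as a fusion with ubiquitin, was 2083 and 2985 RPKM in the ScY01a libraries, 7663 and 7769 in those of *sin3∆*, 6231 and 5893 in those of *srb2∆*, and 3225 and 3645 in those of *mig1∆*. Each was apart from the wild type in both deletions, with *RPS31* the most variable of them in the wild type.

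*RPS3* was 991 and 933 RPKM in the ScY01a libraries, 2793 and 2738 in those of *sin3∆*, 2350 and 2289 in those of *srb2∆*, and 1277 and 1533 in those of *mig1∆*. *RPS2*, whose protein bears on decoding accuracy, was 1443 and 1525 RPKM in the ScY01a libraries, 3511 and 3686 in those of *sin3∆*, 3252 and 3190 in those of *srb2∆*, and 1854 and 2014 in those of *mig1∆*. *RPS2* had the smallest change of the single-copy genes, a log2 fold change of 1.28 in *sin3∆* and 1.12 in *srb2∆*. The range over the 8 genes was 1.28 to 1.74 in *sin3∆* and 1.12 to 1.66 in *srb2∆*.

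Among the 46 genes of pairs that were tested, 38 were called higher in *sin3∆* and 40 in *srb2∆*. The A and B copies were called equally often, 19 of 23 each in *sin3∆* and 20 of 23 each in *srb2∆*, with median log2 fold changes of 1.28 for A and 1.33 for B in *sin3∆* and of 1.33 for A and 1.25 for B in *srb2∆*. Genes with and without an intron, 36 and 18 of those tested, had medians of 1.34 and 1.39 in *sin3∆* and 1.32 and 1.31 in *srb2∆*. When copies were added up, the fold change per protein in *sin3∆* ranged from 1.66 for *RPS30* to 4.80 for *RPS14*, with a median of 2.57 over 31 proteins. In *srb2∆* it ranged from 1.49 for *RPS30* to 4.32 for *RPS14*, with a median of 2.49.

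*RPS14A* (YCR031C, chromosome III from 177500 to 178220) had the largest change of the family in both deletions. It was 1739 and 2095 RPKM in the ScY01a libraries, 9310 and 9594 in those of *sin3∆*, 8906 and 8110 in those of *srb2∆*, and 1963 and 2466 in those of *mig1∆*. The 4 libraries of *sin3∆* and *srb2∆* lay far above the others, while those of *mig1∆* overlapped the wild type. The log2 fold change was 2.31 (SE 0.14, adjusted p = 5.9e-06) in *sin3∆* and 2.15 (SE 0.14, adjusted p = 8.39e-06) in *srb2∆*. *RPS14B* (YJL191W, chromosome X from 73787 to 74611) was 83 and 122 RPKM in the ScY01a libraries, 235 and 241 in those of *sin3∆*, 216 and 200 in those of *srb2∆*, and 118 and 137 in those of *mig1∆*. It rose too, by less: 1.24 on the log2 scale in *sin3∆* (SE 0.17, adjusted p = 3.62e-04) and 1.04 in *srb2∆* (SE 0.17, adjusted p = 9.18e-04). Without wild type replicate 2 its value fell to 0.96 in *sin3∆* and 0.77 in *srb2∆*, under the 2-fold threshold.

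Which copy rose more was tested on the ratio of A to B in each library, with p-values adjusted over the 59 gene pairs of the genome named A and B that could be tested. All of these except *COX5* and *NHP6* were pairs of ribosomal protein genes, the *RPS* pairs among them. The percentages given for all pairs are therefore mostly those of ribosomal protein pairs and not a rate for gene pairs of the genome at large. A pair was called at a change in ratio of at least 1.5-fold. In *sin3∆*, 3 of 23 *RPS* pairs were called, where 18.6% of all such pairs were, and in *srb2∆* 2 were called, where 15.3% were. With no threshold on the change, 12 *RPS* pairs passed the adjusted p in *sin3∆* (55.9% of all pairs) and 11 in *srb2∆* (57.6%). The A copy rose more in 9 of the 23 pairs in *sin3∆* and in 14 in *srb2∆*. The copy that was higher in the wild type gained share in 10 and 11 of them.

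*RPS22* changed most in both deletions, towards A. Rps22 is a protein of the body that contacts the central domain of the 18S rRNA. *RPS22A* (YJL190C, chromosome X from 74910 to 75302) was 1193 and 1582 RPKM in the ScY01a libraries, 4520 and 4516 in those of *sin3∆*, 4071 and 3838 in those of *srb2∆*, and 1735 and 1990 in those of *mig1∆*. *RPS22B* (YLR367W, chromosome XII from 856442 to 857317), the copy with an intron, was 294 and 379 RPKM in the ScY01a libraries, 462 and 440 in those of *sin3∆*, 361 and 334 in those of *srb2∆*, and 284 and 341 in those of *mig1∆*. *RPS22A* thus rose with the rest of the family, while the *RPS22B* libraries of *srb2∆* and *mig1∆* lay within or across the wild type range.

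The log2 fold change of *RPS22A* was 1.72 in *sin3∆* and 1.52 in *srb2∆*. That of *RPS22B* was the smallest of the 54 genes in every deletion: 0.43 in *sin3∆* (SE 0.14, adjusted p = 0.0227), 0.06 in *srb2∆* (adjusted p = 0.731) and -0.10 in *mig1∆* (adjusted p = 0.668). The share of A rose from 80.4% ± 0.32 (SD, n = 2) in the wild type to 90.9% ± 0.28 in *sin3∆* and 91.9% ± 0.10 in *srb2∆*. The ratio of A to B changed 2.44-fold in *sin3∆* (log2 1.29, SE 0.05, adjusted p = 4.09e-07) and 2.77-fold in *srb2∆* (log2 1.47, SE 0.05, adjusted p = 3.03e-07). It was called without each library in turn.

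*RPS14* changed towards A in both deletions as well. The share of *RPS14A* was 95.0% ± 0.66 (SD, n = 2) in the wild type, 97.5% in both *sin3∆* libraries and 97.6% in both *srb2∆* libraries. The ratio changed 2.10-fold in *sin3∆* (log2 1.07, SE 0.09, adjusted p = 4.07e-05) and 2.17-fold in *srb2∆* (log2 1.11, SE 0.09, adjusted p = 3.07e-05). Without each library in turn the log2 change stayed between 0.93 and 1.21 in *sin3∆* and between 0.98 and 1.25 in *srb2∆*. *RPS14B* and *RPS22A* are neighbours on chromosome X that face each other with 298 bases between the genes. Their mean RPKM in the wild type was 102 and 1388, and they rose by 1.24 and 1.72 on the log2 scale in *sin3∆*.

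**Figure D4:**
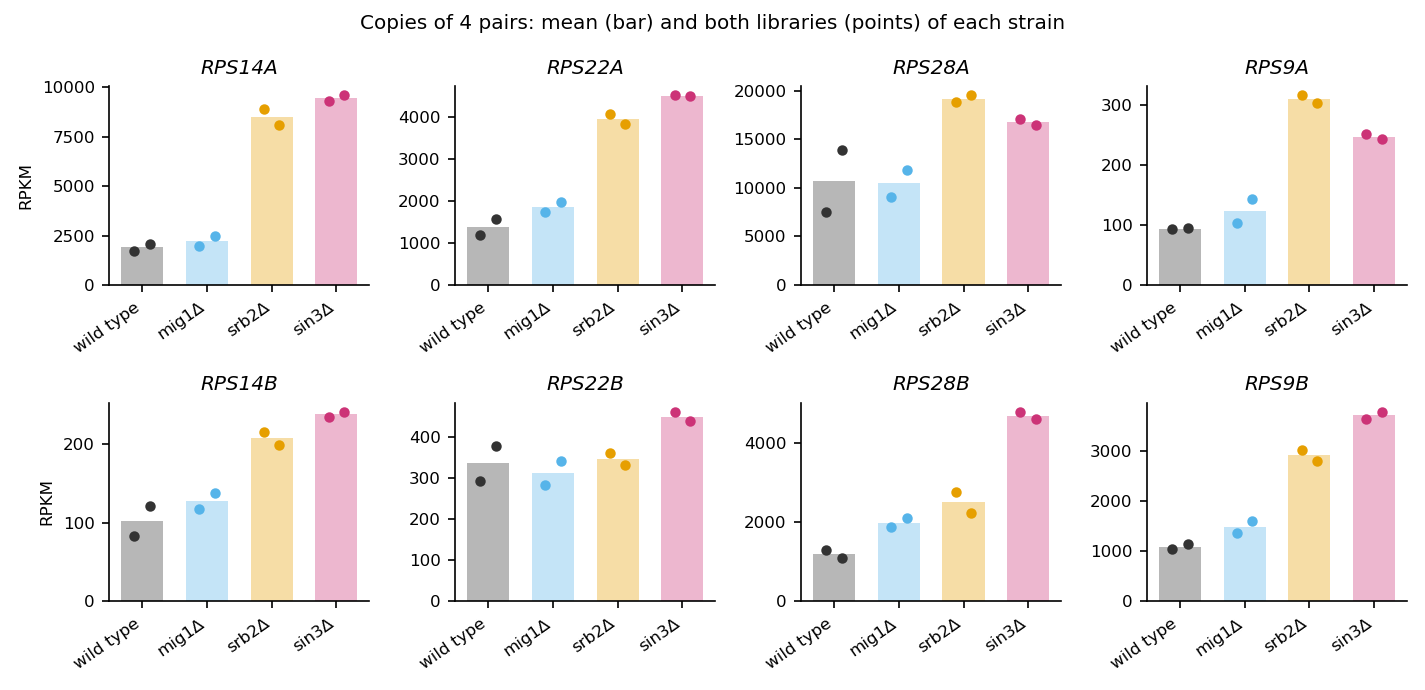
RPKM of both copies of *RPS14*, *RPS22*, *RPS28* and *RPS9* in each strain, on axes that start at 0 and differ between genes. Bars are means and points the 2 libraries. *RPS22B* stays between 284 and 462 RPKM in all libraries, and *RPS28B* is highest in *sin3∆*, at 4772 and 4583 RPKM.

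*RPS28* changed towards B in *sin3∆*. *RPS28A* (YOR167C, chromosome XV from 648804 to 649007) was the highest *RPS* gene in every library. It was at 7471 and 13940 RPKM in the ScY01a libraries, 17102 and 16458 in those of *sin3∆*, 18867 and 19524 in those of *srb2∆*, and 9077 and 11840 in those of *mig1∆*. *RPS28B* (YLR264W, chromosome XII from 673131 to 673334) was 1297 and 1099 RPKM in the ScY01a libraries, 4772 and 4583 in those of *sin3∆*, 2763 and 2224 in those of *srb2∆*, and 1871 and 2103 in those of *mig1∆*. *RPS28A* varied almost 2-fold between the wild type libraries, and *RPS28B* did not, with every deletion library above both.

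*RPS28B* had the second largest log2 fold change in *sin3∆*, 1.97 (SE 0.13, adjusted p = 9.77e-06), and 1.05 in *srb2∆* (SE 0.13, adjusted p = 2.66e-04). In *mig1∆* its log2 fold change of 0.73 (SE 0.13, adjusted p = 0.0157) was the largest of the family, but short of 2-fold. The ratio of A to B fell 2.38-fold in *sin3∆* (log2 change -1.25, SE 0.35, adjusted p = 0.0143), and in *srb2∆* its log2 change was -0.14 (adjusted p = 0.707). The ratio depended on the wild type library used. The log2 change was -1.82 without wild type replicate 2 and -0.68 without wild type replicate 3, and the call was lost without *sin3∆* replicate 1 (adjusted p = 0.0728) or *sin3∆* replicate 2 (adjusted p = 0.0777). In *srb2∆* the change was -0.71 without wild type replicate 2, past the threshold (adjusted p = 0.0202), and 0.43 without wild type replicate 3.

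**Figure D5:**
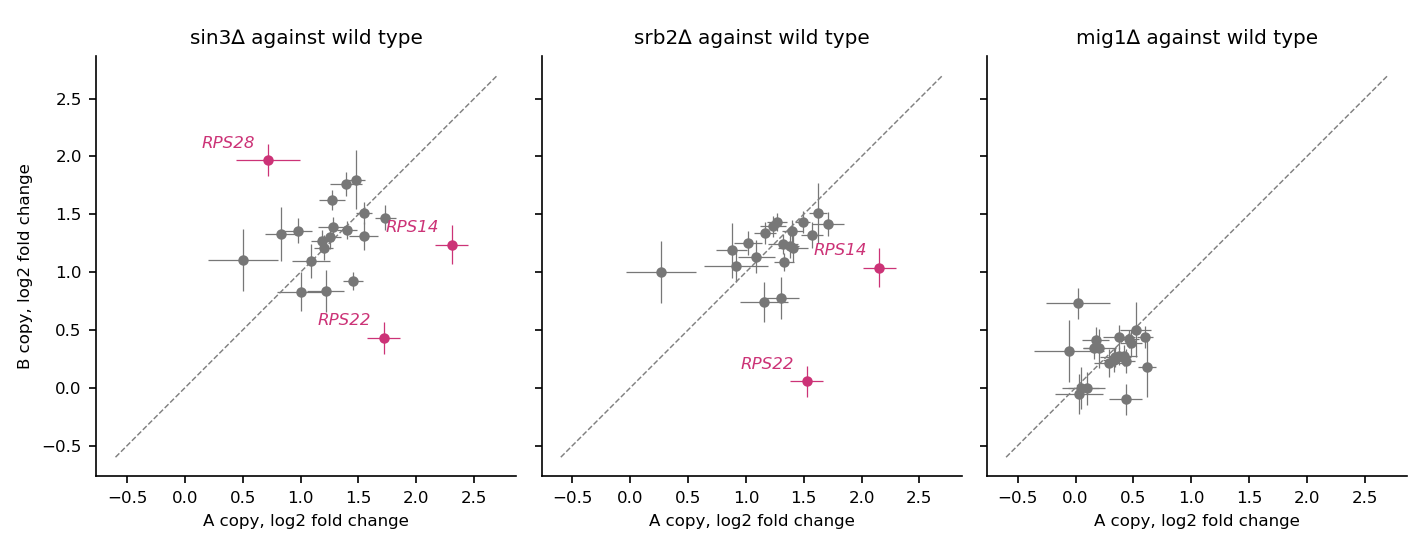
Log2 fold change of the B copy against that of the A copy for 21 *RPS* pairs in each deletion strain, with bars of 1 SE. The dashed line marks equal change, and pairs called for a changed ratio are coloured and named: *RPS14*, *RPS22* and *RPS28* in *sin3∆*, *RPS14* and *RPS22* in *srb2∆*, and none in *mig1∆*.

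Smaller shifts passed the adjusted p but not the 1.5-fold threshold, and in *sin3∆* they went both ways. Among those towards B there were *RPS27*, with a 1.42-fold change in ratio (adjusted p = 0.011), and *RPS23*, with 1.30-fold (adjusted p = 0.00168). In *RPS7*, a pair of the subunit's foot with the least alike proteins, the share of A rose from 69.5% ± 2.1 (SD, n = 2) to 76.7% ± 0.17 in *sin3∆*, a 1.44-fold change in ratio (adjusted p = 9.35e-04). In *RPS10*, a protein of the head, it rose from 58.3% ± 0.74 to 64.5% ± 0.18 in *sin3∆* and 66.8% ± 0.17 in *srb2∆*, where the ratio changed 1.44-fold (adjusted p = 2.1e-04). For all 4 copies of *RPS7* and *RPS10* both *sin3∆* libraries lay above both wild type libraries, though *RPS7B* and *RPS10B* were not called higher.

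*RPS21A*, a partner of Rps0 in late assembly, was 1502 and 1468 RPKM in the ScY01a libraries, 4189 and 4092 in those of *sin3∆*, 4609 and 4553 in those of *srb2∆*, and 2241 and 2325 in those of *mig1∆*. *RPS9A* was 93.2 and 94.6 RPKM in the ScY01a libraries, 253 and 243 in those of *sin3∆*, 316 and 303 in those of *srb2∆*, and 103 and 144 in those of *mig1∆*. *RPS9A* had the second largest log2 fold change in *srb2∆*, 1.71 (SE 0.14, adjusted p = 2.35e-05), from the lowest mean RPKM among the members with a value in the wild type.

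All genes that were not called higher in these deletions belonged to pairs. In *sin3∆* they were *RPS7B*, *RPS10B*, *RPS22B*, *RPS23A*, *RPS26B*, *RPS27A*, *RPS28A* and *RPS30A*, and in *srb2∆* the same genes without *RPS7B* and *RPS23A*. By adjusted p alone 53 members were higher in *sin3∆* (38.4% of all genes) and 52 in *srb2∆* (35.5%). All passed it except *RPS30A* in both deletions (0.166 and 0.456) and *RPS22B* in *srb2∆*. *RPS26B*, one copy of a protein at the exit of the mRNA path, was 1752 and 2576 RPKM in the ScY01a libraries, 3728 and 3824 in those of *sin3∆*, 3546 and 3552 in those of *srb2∆*, and 1935 and 2167 in those of *mig1∆*. *RPS10B* was 1221 and 1790 RPKM in the ScY01a libraries, 2563 and 2730 in those of *sin3∆*, 2634 and 2439 in those of *srb2∆*, and 1343 and 1618 in those of *mig1∆*. In both genes the *sin3∆* and *srb2∆* libraries were above the wild type, where replicate 3 was higher than replicate 2, and those of *mig1∆* were within the wild type range.

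*RPS27A*, which encodes a zinc-binding protein of the foot, was 1192 and 1549 RPKM in the ScY01a libraries, 2385 and 2438 in those of *sin3∆*, 2578 and 2420 in those of *srb2∆*, and 1821 and 2084 in those of *mig1∆*. *RPS23A* was 2845 and 3174 RPKM in *sin3∆* and 3207 and 2982 in *srb2∆*, a log2 fold change of 0.98 just under the threshold in the first and 1.02 just above it in the second. *RPS7B* was 390 and 349 RPKM in the ScY01a libraries, 698 and 704 in those of *sin3∆*, and 781 and 786 in those of *srb2∆*. *RPS26A*, at 3207 and 5038 RPKM in the wild type and 7798 and 8293 in *sin3∆*, was the called gene nearest to the threshold.

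*RPS30A* was 9177 and 9469 RPKM in the libraries of *sin3∆*, 7156 and 8713 in those of *srb2∆*, and 6362 and 6273 in those of *mig1∆*, and each of these fell at or inside the wild type range of 4564 to 9464 RPKM except 1 *sin3∆* library. *RPS30B* was 12415 and 12065 RPKM in the libraries of *sin3∆*, 12203 and 10621 in those of *srb2∆*, and 6624 and 7591 in those of *mig1∆*. Rps30 lies near the entry of the mRNA path. *RPS30B* was called higher, with a log2 fold change of 1.11 (SE 0.27, adjusted p = 0.00684) in *sin3∆* and 1.001 (SE 0.27, adjusted p = 0.011) in *srb2∆*, and without wild type replicate 2 the values were 0.65 and 0.55. The ratio of A to B was not called in either deletion (adjusted p = 0.174 and 0.0929).

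In *mig1∆* the changes of the *RPS* genes were smaller, mostly upward and all short of 2-fold. Of 54 *RPS* genes, 0 were called higher, where 0.995% of all genes tested were, and 0 were lower, where 0.657% were. The median log2 fold change was 0.34 against 0.03 for all genes, and both *mig1∆* libraries lay above both wild type libraries for 37 *RPS* genes, where 28.4% of all genes did. With no fold threshold, 16 *RPS* genes passed the adjusted p, all higher, where 7.41% of all genes were higher by that rule. An unadjusted p under 0.05 was seen for 31 *RPS* genes, and the share of all genes by this looser rule was not counted. Without wild type replicate 2, 43 of the 54 values were above 0 in place of 49, and without wild type replicate 3 all 54 were.

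The largest values in *mig1∆* after *RPS28B* were those of *RPS21A*, 0.62 (SE 0.08, adjusted p = 0.00387), and *RPS19A*, 0.60 (SE 0.07, adjusted p = 0.00282). *RPS19A*, whose protein is needed for maturation of the pre-rRNA, was 667 and 659 RPKM in the ScY01a libraries, 1001 and 1009 in those of *mig1∆*, 1975 and 1900 in those of *sin3∆*, and 1886 and 1840 in those of *srb2∆*. Its *mig1∆* libraries lay between those of the wild type and of the other deletions, apart from both. For the pair ratios, 0 of 23 pairs were called in *mig1∆*, as for all pairs (0% of 59), and 2 passed the adjusted p alone (11.9% of all pairs): *RPS22*, with a share of A of 85.6% ± 0.40 (SD, n = 2) and a 1.45-fold change in ratio (adjusted p = 5.05e-04), and *RPS23* (1.18-fold, adjusted p = 0.0432). There were 5 *RPS* pairs with an unadjusted p under 0.05, and the share of all pairs by that rule was not counted.

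*sin3∆* and *srb2∆* were also compared with each other, without the wild type. Of 54 genes, 0 were called in either direction, where 14.9% of all genes tested were. An unadjusted p under 0.05 was seen for 7 of them, and the share of all genes by that rule was not counted. By adjusted p alone 4 *RPS* genes were higher in *sin3∆*, where 30.9% of all genes were. Among them were *RPS28B* (log2 difference 0.92, adjusted p = 9.21e-04), *RPS9B* (0.35, adjusted p = 0.0252) and *RPS22B* (0.38, adjusted p = 0.0479). The median log2 difference was 0.07, and -0.04 with each library scaled to the same sum. The differences ranged from -0.32 for *RPS9A* to 0.92 for *RPS28B*.

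The copy ratio differed between *sin3∆* and *srb2∆* in 2 of 23 pairs, where 10.2% of all pairs were called, and in 6 by adjusted p alone (33.9% of all pairs). *RPS9B* was 3635 and 3773 RPKM in *sin3∆*, 3024 and 2804 in *srb2∆*, 1044 and 1141 in the wild type, and 1360 and 1610 in *mig1∆*. With *RPS9A* higher in *srb2∆* than in *sin3∆*, the share of A was 6.28% ± 0.31 (SD, n = 2) in *sin3∆* and 9.61% ± 0.20 in *srb2∆*, with the wild type between them at 7.93% ± 0.38. Against the wild type the log2 change in ratio was -0.37 in *sin3∆* (adjusted p = 0.00848) and 0.30 in *srb2∆* (adjusted p = 0.026). The ratio differed 1.59-fold (log2 -0.67, SE 0.09, adjusted p = 0.00118), and the log2 difference stayed between -0.72 and -0.61 without each library. The other was *RPS28*, at 78.2% in both *sin3∆* libraries against 87.2% and 89.8% in *srb2∆* (2.16-fold, adjusted p = 0.042). Its adjusted p was between 0.0834 and 0.190 without each of the 4 libraries in turn, so that this call was lost in every case.

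Genes that regulate ribosomal protein genes were listed for comparison. *RAP1* was 32.0 and 30.0 RPKM in the ScY01a libraries, 56.03 and 56.5 in those of *sin3∆*, 33.0 and 34.9 in those of *srb2∆*, and 42.9 and 36.9 in those of *mig1∆*. *IFH1*, the coactivator, was 17.02 and 16.2 RPKM in the ScY01a libraries, 35.5 and 32.9 in those of *sin3∆*, 45.2 and 46.0 in those of *srb2∆*, and 15.5 and 16.4 in those of *mig1∆*. *CRF1*, which encodes a corepressor that competes with Ifh1p for Fhl1p, was 52.3 and 58.1 RPKM in the ScY01a libraries, 19.1 and 19.7 in those of *sin3∆*, 9.15 and 10.1 in those of *srb2∆*, and 38.2 and 32.6 in those of *mig1∆*. Of these, *CRF1* was called lower in *sin3∆* (log2 fold change -1.46) and in *srb2∆* (-2.40), and *IFH1* was called higher in *srb2∆* (1.41) and lay just under the threshold in *sin3∆*.

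*FHL1*, *HMO1* and *SFP1* did not reach 2-fold. Their log2 fold changes in *sin3∆* and *srb2∆* were 0.58 and 0.48 for *FHL1*, -0.51 and -0.32 for *HMO1*, and -0.72 and -0.04 for *SFP1*. The kinase gene *SCH9* was called higher in *srb2∆* (1.09). Of the 10 regulators listed, 0 were called higher in *sin3∆* (17.7% of all genes) and 1 lower (12.2%). In *srb2∆* 2 were higher (15.0%) and 1 lower (14.9%), and in *mig1∆* 0 were called.

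Of 13 listed genes for late assembly of the 40S subunit and for chaperones of its proteins, 5 were called higher in *sin3∆* (17.7% of all genes), 8 in *srb2∆* (15.0%) and 0 in *mig1∆* (0.995%). In these strains 0 were called lower, where 12.2%, 14.9% and 0.657% of all genes were. *DIM1*, the methylase of 18S rRNA, was 44.5 and 47.4 RPKM in the ScY01a libraries, 177 and 173 in those of *sin3∆*, 170 and 179 in those of *srb2∆*, and 46.1 and 47.8 in those of *mig1∆*. *TSR2*, the chaperone of Rps26, was 54.6 and 60.4 RPKM in the ScY01a libraries, 132 and 107 in those of *sin3∆*, 192 and 174 in those of *srb2∆*, and 61.8 and 58.1 in those of *mig1∆*. Both were apart from the wild type in *sin3∆* and *srb2∆*, and the log2 fold changes of the late assembly factors *LTV1* and *ENP1* were 1.57 and 1.41 in *sin3∆* and 1.54 and 1.70 in *srb2∆*. Other genes of the list changed less or fell. *HRR25* had a log2 fold change of -0.75 in *sin3∆*, with both libraries below the wild type, and 0.23 in *srb2∆*. The values of *NOB1* and *TSR4* were 0.31 and 0.26 in *sin3∆* and 0.56 and 0.72 in *srb2∆*.

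Since the members moved together, the 500 bases before each start codon were searched on both strands for a Rap1p motif whose core reads ACCCNNACA. With AC before the core, it was found for 8 of 56 *RPS* genes (14.3%) and for 0.933% of 6000 genes of the genome. For 7 of these genes the match is shown in capitals with 9 bases on either side, on the strand of the gene.
RPS7A: aaccttatcACACCCAAACAtatgatatg
RPS10A: ttctgggttTGTATGGGTGTtacaccggt
RPS10B: catcgcgcaTGTGTGGGTGTatatgccct
RPS16B: tcagaaaaaACACCCATACAtgttgaaaa
RPS21B: aatgtgtttACACCCGTACActttataca
RPS23B: catctccaaACACCCATACAtatttatat
RPS24A: cgggactgtACACCCACACAtttacaagc

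On R64, these stretches with their flanks lie on chromosome XV from 505310 to 505338 (*RPS7A*) and from 866749 to 866777 (*RPS10A*), on chromosome XIII from 732215 to 732243 (*RPS10B*), on chromosome IV from 308134 to 308162 (*RPS16B*), on chromosome X from 157598 to 157626 (*RPS21B*), on chromosome XVI from 794646 to 794674 (*RPS23B*) and on chromosome V from 305976 to 306004 (*RPS24A*). Those of *RPS16B* and *RPS21B* are on the minus strand. The matches began between 190 and 475 bases before the start codon, and those of *RPS10A* and *RPS10B* read the motif on the other strand. The core alone, which lies within the longer motif and was chosen after the first count was seen, was found for 18 *RPS* genes (32.1%) and 5.47% of all genes. The Abf1p motif, TCA and ACG with 6 bases between them, was found for 21.4% of *RPS* genes and 22.7% of all genes. Only in *RPS10* did both copies hold the longer motif, and neither copy of *RPS14*, *RPS22*, *RPS28* or *RPS9* did. A match describes these letters alone, and no match says nothing about binding of the factor.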

How the data were processed

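The authors aligned 150-base paired reads to the R64 transcriptome with Bowtie2 and estimated expression with RSEM; the tools are those that the methods and processing notes name. The deposited table holds RPKM per gene for 8 libraries, and its name says that the values were TMM-normalized between libraries. It was used as deposited, apart from rows that were empty and are not reported here. The authors' tables of DESeq2 fold changes and p-values were not used. The table holds no read counts, so counting error is not given.

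Values were transformed as log2(RPKM + 1), so that fold changes of low genes are understated. The 5628 of 6103 genes that reached 1 RPKM in 2 or more libraries entered 1 limma fit of the 4 strains (limma 3.58.1, R 4.3.3, prior variance trended on level, 4 residual degrees of freedom). p-values were adjusted by Benjamini and Hochberg over all genes. Calls required a 2-fold difference with an adjusted p no higher than 0.05. The ratio log2((A + 1)/(B + 1)) was fitted in the same way over 59 of the 61 gene pairs whose symbols differ only in a final A or B. Of the gene IDs, 5977 matched a RefSeq locus of R64, including all 56 *RPS* genes. Sequences, introns and identities came from the R64 RefSeq genome and annotation. Scripts were tested on simulated data. Some items are counted but not reported singly here, and the plots leave them out.

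Members, gene lists and tests were chosen with earlier results of these data known. Values in every library were given for single-copy genes, genes listed at 0, the 3 most and 3 least even pairs, pairs called for their ratio, the 3 largest and 3 smallest changes per deletion, and genes not called in *sin3∆* or *srb2∆*. *RPS7*, *RPS10*, *RPS23* and *RPS27* were named as pairs with smaller shifts with their values known. The alternatives tried were other scalings, filters of none and 10 RPKM, pseudocounts of 0.1 and 5, no trend, only the 2 groups compared, calls without the fold threshold, limma's test against 1.5-fold, ratio changes of 2-fold, pairs from protein similarity, a replicate block, and leaving out each library. Similarity pairs (blastp 2.17.0, at 30% identity, and at 50%, which was added after seeing the data) used translated coding sequences. Tables were handled in Python 3.11.15 with pandas 2.3.3 and drawn with matplotlib 3.10.9.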

Additional observations from a re-analysis of the deposited data

How the results depend on the processing

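Counts of *RPS* genes called higher were 28 in *sin3∆* and 36 in *srb2∆* with each library scaled to the same sum, and 14 and 13 with quantile normalization. The same-sum scaling moved the median of all genes to -0.30 and -0.22 on the log2 scale, and the members' medians were 1.03 and 1.10 there. With quantile normalization they were 0.71 and 0.79, against 1.36 and 1.32 in the values reported. With the same-sum scaling, the split of all genes called higher and lower went from 995 and 685 to 649 and 1118 in *sin3∆*. In *srb2∆* it went from 844 and 837 to 588 and 1147. With quantile normalization the split was 844 and 787 in *sin3∆* and 812 and 708 in *srb2∆*. With no fold threshold, 16 *RPS* genes were higher in *mig1∆* and 4 differed between *sin3∆* and *srb2∆*, and 12 pairs changed in *sin3∆*, 11 in *srb2∆*, 2 in *mig1∆* and 6 between *sin3∆* and *srb2∆*. For that last comparison a ratio change of 2-fold left 1 pair, and a fit with no trend left 1. Leaving out each library gave 40 to 52 higher genes in *sin3∆*, 41 to 51 in *srb2∆* and 0 in *mig1∆*. It gave 0 to 1 genes that differed between *sin3∆* and *srb2∆*, and 2 to 6 pairs in *sin3∆*, 2 to 3 in *srb2∆*, 0 to 2 in *mig1∆* and 1 to 1 between *sin3∆* and *srb2∆*. The 6 pairs came without wild type replicate 3 and the 2 of *mig1∆* without wild type replicate 2. The cause was not tested.

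Wild type and *srb2∆* libraries share the replicate numbers 2 and 3, but their deviations from the group means had a correlation of 0.06, so the numbers were not taken as a pairing. With a replicate block, 47 *RPS* genes were higher in *srb2∆*, 0 were lower and 2 pairs changed. *RPS30* was called for its ratio in *sin3∆* and in *srb2∆* with pairs at 30% identity and with no trend. Only 2 libraries stand behind each mean, the table holds no read counts, and short genes varied most in the wild type.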
